A study of Mus musculus with 4 samples.

Results

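The genes described here are 10 genes known from tissue macrophages, *Fcna*, *Treml4*, *C1qa*, *C1qb*, *C1qc*, *Vcam1*, *Csf1r*, *Cd68*, *Cd5l* and *Spic*, of 23906 gene symbols measured. They were chosen by the FPKM values themselves in part: *Fcna* and *Treml4* were taken because they stand near the top of the protein-coding genes high in GFP+ cells of both tissues. The other 8 were taken because they are known macrophage genes, but with earlier results of these data known. RNA was sequenced from LSK-SLAM cells (lineage-negative, Sca1-positive, cKit-positive, CD150-positive and CD48-negative, a phenotype enriched for HSCs) of *BRE-GFP* transgenic mice on a C57BL/6 background. In these mice a BMP responsive element drives GFP, so that GFP marks cells in which BMP signalling is active when they are isolated, and all 4 groups carry this transgene. The 4 groups, with 1 sample each, were GFP+ and GFP- cells of the fetal liver (FL) at embryonic day 14 and GFP+ and GFP- cells of the adult bone marrow (BM). The number of animals behind a sample and the age of the adult mice whose RNA was sequenced are not given in the sources used here. With 1 sample per group there is no replicate error, no difference below was tested, and every fold compares single samples. Where a pair of FPKM values is joined by "against" for a tissue, the GFP+ value comes first and the GFP- value follows.

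Resident macrophages sit in fetal liver, bone marrow and spleen, where they take up dying cells and the nuclei of maturing red cells and recycle iron. Many arise early in development, depend on the receptor CSF1R, and secrete the recognition proteins of complement, C1q and the ficolins. Complement recognition proteins bind microbes or dying cells and start a protease cascade on their surface. The lineage antibodies of the sort recognised CD3, B220, Ter119 and Ly6c, with CD11b added for the adult BM, and none of them is particular to macrophages.

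The samples were first set against their labels. The summed FPKM of 14 genes of fetal cells was 548 and 198 in the FL samples and 9.17 and 8.34 in the BM samples, although single genes of the list did not all follow the tissue and 2 were listed at 0 throughout. *Igf2bp1*, the most abundant of them, stood at 426 FPKM in the GFP+ and 58.8 in the GFP- fraction of the FL, with 0 and 0.0184 in the matching BM fractions. The BM GFP+ sample stood apart. The summed FPKM of 12 neutrophil genes was 52620 there and 7263 in BM GFP- cells, against 45.8 and 56.9 in the FL samples, and that of 11 listed B lineage genes was 4703 and 1109 against 96.6 and 44.1. *Procr*, an HSC surface gene, was listed at 0 in BM GFP+ cells and at 60.8 to 113 in the other samples. In the FL, the GFP+ sample held more hepatocyte RNA, with a summed FPKM of 458.5 over 12 genes against 71.5 in GFP- cells. The share of symbols listed at 0 ranged from 27.4% to 48.2% of a sample, higher in the GFP+ sample of each tissue. None of 20 housekeeping genes was at 0, but 2 to 7 genes per sample were listed at 0 while at 50 FPKM or more in the other 3, so a 0 is given below only as listed. FPKM is scaled to transcript length, so levels of different genes can be compared, and in bulk RNA fewer cells of a type and less RNA per cell cannot be told apart.

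*Fcna* encodes ficolin A, a secreted lectin of the complement lectin pathway made by macrophages of liver and spleen. Its FPKM in the FL was 26.1 for the GFP+ and 1.14 for the GFP- fraction, while the BM fractions gave 44.8 and 0.838. The GFP+ samples were thus high in both tissues and the GFP- samples near 1, a 22.9-fold difference in the FL and a 53.5-fold difference in the BM. *Treml4* encodes a receptor of the TREM family on macrophages and dendritic cells. The GFP+ fractions of FL and BM gave an FPKM of 6.32 and 6.62, whereas it was listed at 0 in FL GFP- cells and at 0.0434 in BM GFP- cells. In BM GFP+ cells *Fcna* lay above 78.4% and *Treml4* above 42.4% of the genes detected in that sample, so *Treml4* was a gene of moderate level even where it was highest. These values chose both genes and are given as a description.

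The start regions of both genes are shown because their FPKM followed the GFP fraction in both tissues. The sequences run 5' to 3' on the strand of the gene, from 250 bases before to 50 bases after the annotated start, as given by RefSeq on GRCm38.p6. Capitals mark matches to GAGGAAG, a PU.1-like box, on either strand. PU.1, the product of *Spi1*, is the Ets family factor of the myeloid lineage.
*Fcna*, chr2:25627925-25628224, minus strand: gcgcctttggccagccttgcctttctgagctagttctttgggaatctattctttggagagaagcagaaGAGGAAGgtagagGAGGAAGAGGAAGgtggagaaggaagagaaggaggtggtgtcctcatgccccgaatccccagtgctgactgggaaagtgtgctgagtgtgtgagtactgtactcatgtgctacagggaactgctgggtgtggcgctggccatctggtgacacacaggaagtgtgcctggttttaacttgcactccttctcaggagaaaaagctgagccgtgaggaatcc
*Treml4*, chr17:48264045-48264344, plus strand: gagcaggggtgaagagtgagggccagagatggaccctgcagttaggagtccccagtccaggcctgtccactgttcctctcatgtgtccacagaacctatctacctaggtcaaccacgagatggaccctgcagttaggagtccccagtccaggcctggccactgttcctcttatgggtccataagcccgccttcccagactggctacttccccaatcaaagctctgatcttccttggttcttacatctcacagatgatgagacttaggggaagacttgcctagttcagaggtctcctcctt

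The gene *Fcna* spans chr2:25624665-25635440 in this annotation and *Treml4* spans chr17:48264200-48275607, so both windows stand at a start inside the limits of the gene. The *Fcna* window held 3 matches to GAGGAAG on the strand of the gene. They begin at -182, -169 and -163 from the start, and the last 2 of them share a base. The *Treml4* window held none. Of the 7 windows found for the 10 genes, 3 held the box (*Fcna*, *C1qc* and *Cd5l*), and 13.6% of all 32817 windows did. Neither GGCGCC nor GTCTAGAC, which are SMAD-like motifs, was present in any of the 7 windows (0 of 7), while 11.9% and 0.213% of all windows held them. *C1qa*, *Vcam1* and *Csf1r* have no entry among the windows. A match is a string of letters and not a measured binding site.

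*Fcna* ranked first and *Treml4* ranked 3 among the 409 genes past 2-fold higher in the GFP+ fraction of both FL and BM, ordered by the smaller of both log2(FPKM + 1) ratios and without short RNA, Gm and Rik symbols. *Tspan17* stood between them, with an FPKM of 10.8 and 0.136 in FL GFP+ and GFP- cells and of 16.4 and 1.27 in those of the BM. Below *Treml4* came *Cd200r3*, *H2-Q10* and *Gpr31b*. *Vcam1* ranked 32 and *C1qc* ranked 42 in this order. By the distance between log2(FPKM + 1) values over the 4 samples, with 16496 genes searched, the genes most like *Fcna* were *E2f2* (1.79), *Cd200r3* (2.05), *Tspan17* (2.08), *Tiam2* (2.13) and *Myl9* (2.21). Those most like *Treml4* were *H2-Q10* (0.47), *Bhlha15* (0.79), *Ppm1j* (0.83), *Serp2* (0.86) and *Redrum* (0.90). *H2-Q10* had an FPKM of 7.53 and 7.71 in the FL and BM GFP+ samples and of 0.192 and 0.260 in the GFP- samples, close to *Treml4* in each. The other 8 macrophage genes were kept out of this search, and their distances from *Fcna* ran from 2.73 for *Vcam1* to 7.06 for *Cd68*.

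**Figure D1:**
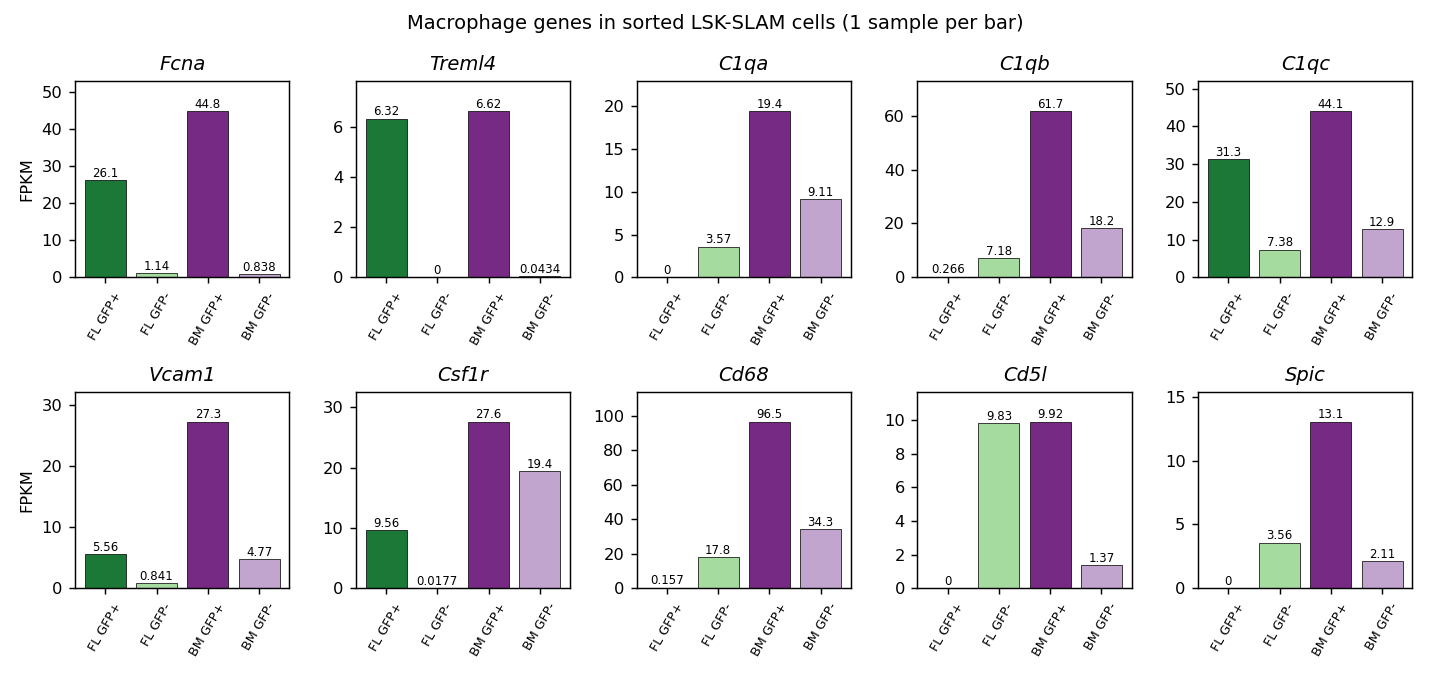
FPKM of the 10 macrophage genes, with 1 panel per gene, 1 bar per sample (1 sample per group, no error bars) and a separate FPKM axis from 0 in each panel. *Fcna* and *Treml4* are high in both GFP+ samples, whereas *C1qa*, *C1qb*, *Cd68*, *Cd5l* and *Spic* are at 0 to 0.266 in FL GFP+ cells and highest in BM GFP+ cells.

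The other genes did not share one pattern. In the FL, 5 of the 10 genes were past 2-fold higher in the GFP+ fraction, by the ratio of the FPKM values (*Fcna*, *Treml4*, *C1qc*, *Vcam1* and *Csf1r*), against 16.5% of all genes detected in either sample. The remaining 5 (*C1qa*, *C1qb*, *Cd68*, *Cd5l* and *Spic*) were past 2-fold in the other direction, as were 38.4% of all genes. In the BM, 9 of the 10 genes were higher in GFP+ cells, with *Csf1r* the exception, against 18.0% of all genes. None was higher in BM GFP- cells (0 of 10, against 36.7% of all genes). Without *Fcna* and *Treml4*, which the same contrast chose, the counts were 3 and 5 of 8 in the FL and 7 of 8 in the BM. Past 2-fold in GFP+ cells of both tissues were 4 genes (*Fcna*, *Treml4*, *C1qc* and *Vcam1*), against 3.15% of all genes, and in GFP- cells of both tissues none (0 of 10, against 16.4%). Since this rule chose *Fcna* and *Treml4*, their calls were fixed in advance, and 2 of the other 8 genes were past 2-fold in GFP+ cells of both. The 5 genes lower in GFP+ cells of the FL were all higher in GFP+ cells of the BM, a combination seen in 7.74% of all genes. The reverse combination was seen in 0 of the 10 and in 5.86% of all genes.

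The median log2(FPKM + 1) ratio of GFP+ over GFP- cells over the 10 genes was -0.18 for the FL but 1.94 for the BM, beside -0.06 in both tissues over all genes detected. Without *Fcna* and *Treml4*, which this contrast chose, the medians were -2.19 for the FL and 1.70 for the BM. The FL median of the 10 genes lies between separate groups of genes, from 1.83 to 3.66 and from -4.02 to -2.19. No gene had a ratio near it. When the samples were rescaled to equal FPKM totals, *C1qa* came under 2-fold in the BM (1.56-fold), so that 8 genes were past it there. That rescaling also moved the all-gene medians to -0.18 and -0.21, and in the BM the genes past 2-fold went from 3198 higher and 6535 lower in GFP+ cells to 2177 and 7687.

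**Figure D2:**
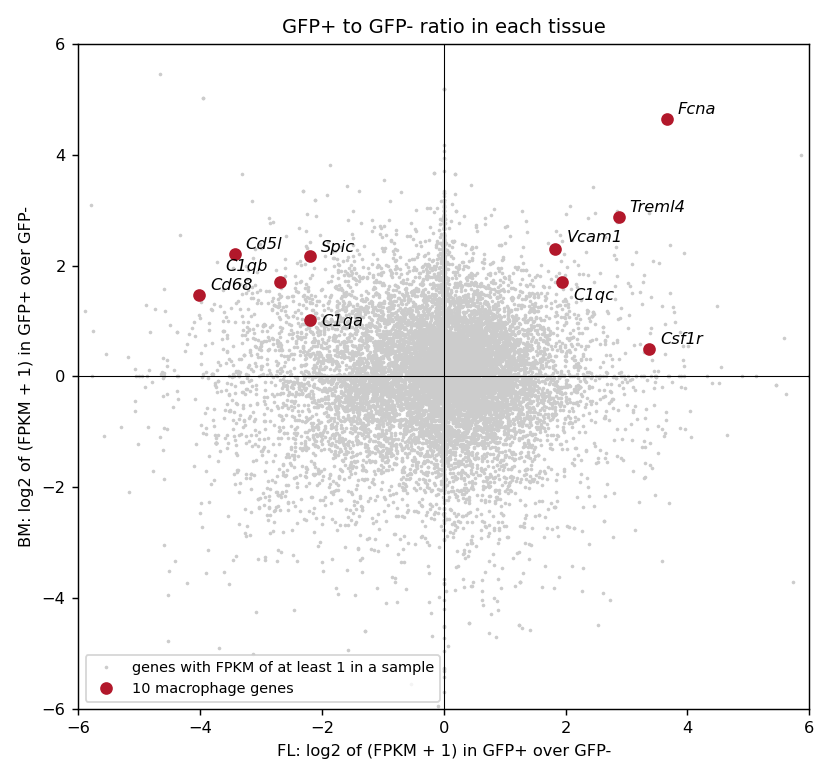
Log2 ratio of (FPKM + 1) in GFP+ over GFP- cells in the FL (x axis) and in the BM (y axis), with the 10 macrophage genes in red and 13609 genes that reached an FPKM of 1 in any sample in grey (168 lie outside the axes). All 10 genes lie above 0 on the BM axis, 5 to the right and 5 to the left of 0 on the FL axis.

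C1q is the recognition part of the first complement component, built from chains A, B and C in equal numbers, and the genes *C1qb*, *C1qc* and *C1qa* lie side by side between chr4:136880126 and chr4:136898844. *C1qa* was listed at 0 in FL GFP+ cells and had an FPKM of 3.57 in FL GFP- cells, with 19.4 for the GFP+ and 9.11 for the GFP- fraction of the BM. *C1qb* had 0.266, 7.18, 61.7 and 18.2 in the same order. *C1qc* had 31.3, 7.38, 44.1 and 12.9. The chains moved together in 3 of the samples and parted in FL GFP+ cells, where *C1qc* was at its second highest level and the other chains were at or near 0. There *C1qc* made up 99.2% of the summed FPKM of the 3 chains, against 40.7% in FL GFP- cells and, in the BM, 35.2% for the GFP+ and 32.0% for the GFP- fraction. The ratio of *C1qb* to *C1qc* was 0.0085 in FL GFP+ cells and 0.973, 1.40 and 1.42 in the other samples. In the BM all 3 chains were higher in GFP+ cells, by 2.13-fold for *C1qa*, 3.38-fold for *C1qb* and 3.43-fold for *C1qc*.

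The start regions of *C1qb* and *C1qc* are shown because these genes, separated by 3600 bases and read from the same strand, parted in FL GFP+ cells. Limits, orientation and source are those given above, and capitals again mark GAGGAAG on either strand.
*C1qb*, chr4:136886151-136886450, minus strand: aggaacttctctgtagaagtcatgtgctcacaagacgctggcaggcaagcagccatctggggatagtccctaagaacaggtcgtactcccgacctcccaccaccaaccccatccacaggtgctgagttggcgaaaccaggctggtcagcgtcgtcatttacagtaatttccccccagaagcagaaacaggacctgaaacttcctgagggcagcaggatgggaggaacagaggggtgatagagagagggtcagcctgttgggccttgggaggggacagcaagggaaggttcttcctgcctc
*C1qc*, chr4:136892865-136893164, minus strand: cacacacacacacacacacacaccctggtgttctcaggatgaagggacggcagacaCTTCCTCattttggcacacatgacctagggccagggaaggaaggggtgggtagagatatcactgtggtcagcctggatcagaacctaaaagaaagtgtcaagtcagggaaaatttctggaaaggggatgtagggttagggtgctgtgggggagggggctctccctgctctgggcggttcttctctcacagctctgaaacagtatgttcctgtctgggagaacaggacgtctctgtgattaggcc

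The *C1qc* window held 1 match, on the opposite strand, which begins at -194 from the start, and the *C1qb* window held none. In the RefSeq annotation *C1qc* ends 2979 bases before *C1qa* begins, and the next protein-coding gene beyond *C1qa* is *Epha8*, which was listed at 0 in 3 samples and at 0.0193 in BM GFP- cells. No gene overlaps the 3 chains in this annotation.

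*Vcam1* encodes an adhesion molecule that binds integrins of lymphocytes and erythroblasts and is carried by macrophages of erythroblastic islands, endothelium and stroma. The gene lies at chr3:116110020-116129688 in RefSeq on GRCm38.p6, the build of all positions given here. The GFP+ and GFP- fractions of the FL gave an FPKM of 5.56 and 0.841, and those of the BM 27.3 and 4.77. It was higher in the GFP+ sample of each tissue, by 6.61-fold in the FL and 5.72-fold in the BM, and higher in BM than in FL cells of either fraction. Among other genes of that adhesion step, *Itgb7*, an integrin beta chain, was also past 2-fold higher in both GFP+ samples, with 25.7 against 5.51 in the FL and 120 against 47.9 in the BM. Of 11 genes on this list, *Itgb7* was the only one past 2-fold higher in the GFP+ fraction of the FL, and 3 were so in the BM, beside 16.5% and 18.0% of all genes detected. At equal FPKM totals 1 in place of 3 was so in the BM, and *Itgb7* came to 1.82-fold there. Most abundant on this list were *Itgb1*, *Itgb2* and *Maea*, at 41.4 to 73.5, 43.6 to 190 and 52.3 to 92.3 over the samples. Endothelium and stroma, which also carry *Vcam1*, were followed by lists of 12 genes each. Of the endothelial genes, none was past 2-fold higher and 4 were lower in FL GFP+ cells. In BM GFP+ cells 3 were higher and 8 lower, with a median log2 ratio of -0.93. The all-gene shares were 16.5% higher and 38.4% lower for the FL, and 18.0% and 36.7% for the BM. The summed FPKM of the endothelial genes was 621 against 594 for the FL fractions, with 126 against 226 for the BM. The stromal genes summed to 0.674 against 6.06 for the FL and 82.1 against 19.5 for the BM. Of 8 detected in the FL, 3 were past 2-fold higher and 2 lower in GFP+ cells. Of 10 detected in the BM, 3 were higher and 4 lower, beside the same all-gene shares, with a median log2 ratio of 0.05. With an FPKM of at least 1 required, the counts were 0 and 2 for the FL and 3 and 1 for the BM. The stromal gene *Cxcl12* made up most of the BM GFP+ sum. It went with *Vcam1* in the BM, at 67.7 in GFP+ and 7.66 in GFP- cells, but was listed at 0 in FL GFP+ cells. The part of these cells in the *Vcam1* values was not tested.

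*Csf1r* encodes the receptor for the macrophage growth factors CSF1 and IL-34, and the RNA genes *Mir6983* and *Gm52352* lie within its limits. Its FPKM was 9.56 for the GFP+ but 0.0177 for the GFP- fraction of the FL, and 27.6 and 19.4 for the BM fractions. FL GFP- cells were the sample that differed, and in the BM the fractions were 1.43-fold apart, under the 2-fold rule. The FL ratio of 539.9-fold rests on a value near 0 and on the log2(FPKM + 1) scale was 3.38. Of the ligands, *Il34* was listed at 0 in all samples and *Csf1* at 0 in both GFP+ samples, with 1.53 and 0.831 in FL and BM GFP- cells. *Spi1*, whose product drives myeloid genes, had an FPKM of 196 and 155 in FL GFP+ and GFP- cells and of 315 and 173 in those of the BM, under 2-fold in each tissue. *Irf8*, a factor of monocytes and dendritic cells, was past 2-fold higher in both GFP+ samples, with 15.1 against 4.79 in the FL and 320 against 132 in the BM. *Irf5* and *Inpp5d* were under 2-fold in the FL, and in the BM *Irf5* was past it, at 72.0 against 33.0. Of the 14 genes of this axis, 12 of them detected in each tissue, 2 were past 2-fold higher and 4 lower in the GFP+ fraction of the FL, and 5 and 2 in that of the BM, beside all-gene shares of 16.5% and 38.4%, and of 18.0% and 36.7%. Scaling to equal totals left 3 in place of 5 higher in BM GFP+ cells, with *Irf8* at 1.77-fold and *Irf5* at 1.59-fold. *Mitf*, a factor of osteoclasts and mast cells, was lower in the GFP+ sample of both tissues, at no more than 1.76.

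*Cd68* (chr11:69664213-69666170) encodes a glycoprotein of the lysosomes of macrophages and other phagocytes. In the FL its FPKM was 0.157 for GFP+ but 17.8 for GFP- cells, and in the BM 96.5 for GFP+ but 34.3 for GFP- cells. It was 113-fold lower in GFP+ than in GFP- cells of the FL and 2.81-fold higher in those of the BM, where it lay above 89.0% of the genes detected. The genes on either side, *Mpdu1* and *Eif4a1*, had FPKM of 62.2 to 105 and 627 to 839 over the samples and showed no such drop in FL GFP+ cells. *Cd5l* (chr3:87357881-87371074) encodes a secreted scavenger receptor protein of macrophages, also called AIM. It was listed at 0 in FL GFP+ cells and reached 9.83 in FL GFP- cells, while the GFP+ and GFP- fractions of the BM gave 9.92 and 1.37. FL GFP- and BM GFP+ cells thus had like levels before rescaling, but 13.2 and 7.23 at equal FPKM totals. BM GFP+ cells were 7.22-fold above BM GFP- cells. *Spic* (chr10:88675269-88683023) encodes an Ets family factor needed for iron-recycling macrophages of spleen and marrow. Its values followed those of *Cd5l*, listed at 0 in FL GFP+ cells and at 3.56 in FL GFP- cells, with 13.1 for the GFP+ and 2.11 for the GFP- fraction of the BM. The distance between the log2(FPKM + 1) values of *Cd5l* and *Spic* over the 4 samples, 1.36, was the smallest among all pairs of the 10 genes, before that of *C1qb* and *Cd68* (1.62).

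Between the tissues, GFP+ cells of the BM were more than 2-fold above those of the FL for 7 of the 10 genes, all but *Fcna*, *Treml4* and *C1qc*, against 36.0% of all genes detected in either. None was higher in FL GFP+ cells (0 of 10, against 27.0% of all genes). In GFP- cells, 5 genes were higher in the BM (*Treml4*, *C1qa*, *C1qb*, *Vcam1* and *Csf1r*), against 29.2% of all genes, and *Cd5l* alone was higher in the FL, by 7.15-fold, against 21.9%. *Treml4* was at no more than 0.0434 in these samples. At equal FPKM totals the genes past 2-fold between the tissues went from 5342 higher and 4012 lower in the BM to 4332 and 5646 for GFP+ cells, and from 5383 and 4032 to 4544 and 5519 for GFP- cells. These comparisons use the same 4 samples as those between the fractions. All 10 genes had their highest FPKM in BM GFP+ cells, as did 27.4% of the genes detected. With the samples rescaled to equal FPKM totals 7 did, since *Treml4* and *C1qc* were then highest in FL GFP+ cells (7.13 against 4.83, and 35.3 against 32.1) and *Cd5l* in FL GFP- cells (13.2 against 7.23).

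The same BM GFP+ sample was also the highest for many genes of other mature cells, though not for most of those of megakaryocytes. It held the highest value for all 12 neutrophil genes, 11 of 11 listed B lineage genes, 11 of 13 T and NK cell genes, 10 of 12 dendritic cell genes and 10 of 12 monocyte genes, but for 4 of 12 megakaryocyte genes. It also did so for 10 of 20 housekeeping genes, and for 27.4% of all genes detected. At equal FPKM totals fewer neutrophil, T and NK cell, dendritic cell and monocyte genes were highest there. Of the 12 megakaryocyte genes, 1 was past 2-fold higher and 5 lower in BM GFP+ cells, beside 18.0% and 36.7% of all genes. Their median log2 ratio was -0.64. The median log2(FPKM + 1) ratio of GFP+ over GFP- cells in the BM was 2.40 for the neutrophil, 2.002 for the B lineage, 2.12 for the erythroid, 1.76 for the dendritic cell and 0.86 for the monocyte genes. These lay on both sides of the 1.94 of the 10 macrophage genes, and of their 1.70 without *Fcna* and *Treml4*. Stem cell genes went the other way, with 10 of 14 past 2-fold lower in BM GFP+ cells, against 36.7% of all genes, and a median of -1.17. In the FL, where *Fcna*, *Treml4*, *C1qc*, *Vcam1* and *Csf1r* were also higher in GFP+ cells, the medians were -0.65 for the neutrophil, -0.10 for the dendritic cell, 0.01 for the monocyte, 0.52 for the B lineage, 1.53 for the hepatocyte and -1.07 for the megakaryocyte genes. The monocyte gene *Ly6c2*, whose product the lineage antibodies recognise, was higher with those macrophage genes, at 16.2 against 0.635 for the FL, while *Ccr2* was at 0.0480 against 0.225. The part of other cells in the macrophage gene values was not tested.

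**Figure D3:**
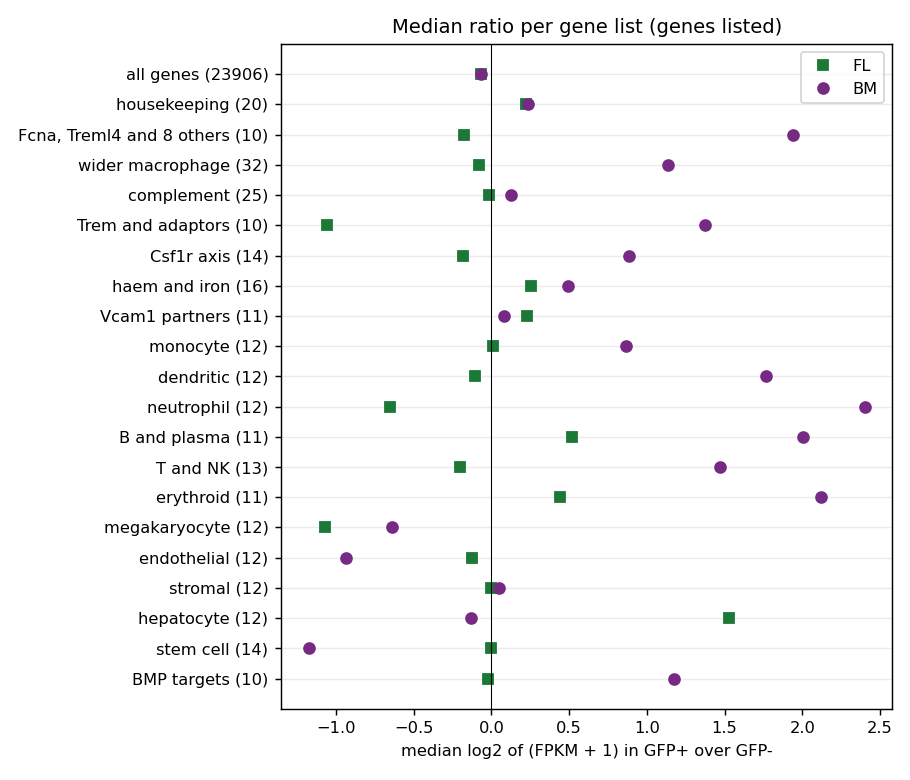
Median log2 ratio of (FPKM + 1) in GFP+ over GFP- cells over the detected genes of each list, for FL (green squares) and BM (purple circles), with the number of listed genes in brackets. In the BM the 10 macrophage genes (1.94) lie among the neutrophil (2.40), B lineage (2.002) and dendritic cell (1.76) lists, and in the FL their median is -0.18. Without *Fcna* and *Treml4*, which this contrast chose, the medians are 1.70 in the BM and -2.19 in the FL (not drawn).

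A wider list of 32 macrophage genes was set beside the 10. In the FL, where 24 were detected, 7 were past 2-fold higher and 11 lower in the GFP+ fraction, and in the BM, where 29 were detected, 15 were higher and 7 lower. For comparison, of all genes detected, 16.5% were past 2-fold higher and 38.4% lower in the GFP+ fraction of the FL, and 18.0% and 36.7% in that of the BM. With an FPKM of at least 1 required in the higher sample, the counts were 6 and 6 for the FL, with 15 and 2 for the BM. Higher in the GFP+ sample of both tissues were *Adgre1*, *Fcgr1*, *Mpeg1* and *Aif1*, of which *Aif1* came to 1.92-fold in the FL at equal FPKM totals. *Adgre1*, listed as *Emr1*, encodes the macrophage surface protein F4/80 and had an FPKM of 12.1 and 2.37 in FL GFP+ and GFP- cells and of 14.2 and 4.90 in those of the BM. *Mpeg1*, which encodes the pore-forming perforin-2 of phagocytes, gave 7.30 against 0.172 for the FL and 84.2 against 18.5 for the BM. *Fcgr1*, a receptor for IgG, gave 4.76 against 0.426 for the FL, and 1.55 in GFP+ cells of the BM with the GFP- cells listed at 0. Lower in the GFP+ sample of both tissues were *Cd163*, *Marco*, *Mertk* and *Nr1h3*, and the last 3 were listed at 0 in both GFP+ samples. Low values carried part of this, with *Cd163* at 0.0862 against 0.391 in the FL. In BM GFP- cells *Marco* was at 0.285 and *Mertk* at 0.243. With an FPKM of at least 1 required in the higher sample, *Nr1h3* alone was lower in both tissues. *Nr1h3* encodes the nuclear receptor LXR alpha, which is known to drive *Cd5l*, and reached 3.78 in the FL and 2.15 in the BM among GFP- cells. In the BM *Cd5l* went the other way, at 9.92 in GFP+ and 1.37 in GFP- cells. A link between these genes was not tested.

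The most abundant genes of this list are not particular to resident macrophages. *Lyz2*, the lysozyme of all myeloid cells, gave 156 against 220 for the FL but 4551 against 1042 for the BM. *Ctss*, a lysosomal protease of antigen-presenting cells, was listed at 0 in FL GFP+ cells and had 1.86 in FL GFP- cells, against 668 and 164 in the BM. *Apoe* was at 633 to 932 in all samples, and *Trf* at 40.9 to 91.6. In contrast, some genes that mark resident macrophages of liver and marrow, named after their values were seen, were at or near 0. Other such genes were not, among them *Adgre1* (2.37 to 14.2), *Hmox1* (8.80 to 59.5) and *Slc40a1* (7.55 to 20.3 over the samples). *Vsig4* was listed at 0 in all 4 samples, *Timd4* in all but BM GFP- cells (0.463), and *Siglec1* and *Clec4f* reached at most 0.229 and 0.149. *Mrc1* was listed at 0 in both FL samples and at 2.46 in BM GFP+ cells. No sample therefore listed all of these markers above 0, although a listed 0 does not show that a gene is absent. The 10 genes are named here by their known site of expression and not as a cell type found in the sorted cells.

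**Figure D4:**
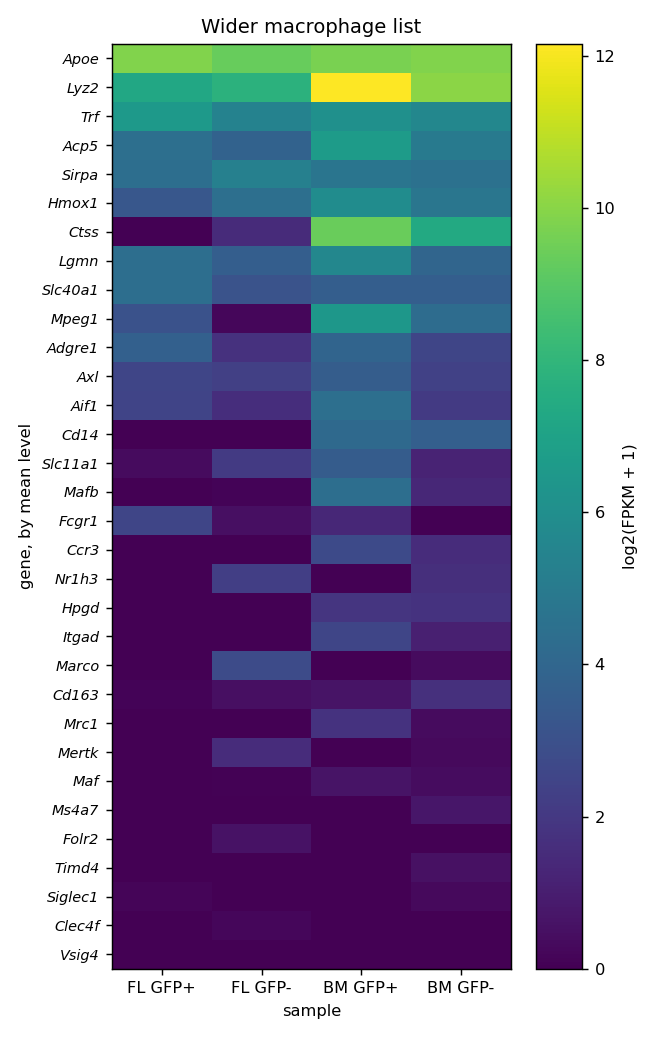
Level of the 32 genes of the wider macrophage list as log2(FPKM + 1) by colour, with 1 column per sample and genes ordered by mean level. *Apoe* is high in all samples (633 to 932 FPKM), *Ctss* is high in the BM samples only (164 and 668 FPKM) and *Vsig4* is at 0 throughout.

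Among complement genes, *Fcnb*, the ficolin of neutrophils and monocytes, went with *Fcna* in direction, with 14.5 against a listed 0 for the FL and 254 against 53.1 for the BM. The other lectins of that pathway, *Mbl1* and *Mbl2*, were listed at 0 in all samples, and its proteases *Masp1* and *Masp2* were at 0.0823 or less. *C3*, the central component, was listed at 0 in both FL samples and gave 54.4 against 12.3 for the GFP+ and GFP- fractions of the BM. *Itgam*, which encodes CD11b, a chain of a complement receptor and a target of the lineage antibodies in the BM, was higher in both GFP+ samples, with 12.98 against 5.197 in the FL and 39.0 against 9.11 in the BM. *C5ar1* and *Serping1* were also higher in both, although at 0.102 or less in the FL. *C1qbp* and *Calr*, named for binding C1q but expressed in all cells, were at 161 to 326 and 190 to 499. *Cfp* encodes properdin and was lower in FL GFP+ cells (7.44 against 21.7) and higher in BM GFP+ cells (103 against 41.3). Rescaled to equal totals, *Cfp* came to 1.82-fold in the BM. Of the 25 genes, 21 detected in the FL and 22 in the BM, 7 were past 2-fold higher and 11 lower in the GFP+ fraction of the FL, and 12 and 5 in that of the BM, beside all-gene shares of 16.5% and 38.4%, and of 18.0% and 36.7%. With an FPKM of at least 1 required in the higher sample, the counts came to 4 and 4 for the FL and to 10 and 2 for the BM.

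*Treml4* lies among related receptor genes on chromosome 17, and its neighbours did not share its pattern. *Trem3*, 5351 bases from it, was listed at 0 in both FL samples and gave an FPKM of 109 against 49.1 for the GFP+ and GFP- fractions of the BM. *Treml2*, 23782 bases away on the other side, gave 18.9 against 14.1 for the FL and 26.6 against 22.6 for the BM, under 2-fold in both. *Treml1*, a receptor of platelets, was lower in both GFP+ samples, at 0 against 2.98 in the FL and 0.332 against 12.6 in the BM. The adaptor gene *Tyrobp*, whose product DAP12 carries the signal of TREM receptors, gave 124 against 77.8 for the FL and 1028 against 337 for the BM. *Fcer1g*, another adaptor, gave 18.9 against 26.3 for the FL and 527 against 173 for the BM. The adaptor *Hcst* was listed at 0 in FL GFP+ cells and had 3.27 in FL GFP- cells, against 104 and 46.6 in the BM. Of the 10 genes of this list 8 detected in the FL and 10 in the BM, none was past 2-fold higher in FL GFP+ cells and 4 were lower, while 8 were higher and 1 lower in BM GFP+ cells, beside all-gene shares of 16.5% and 38.4%, and of 18.0% and 36.7%. With equal totals 6 were higher in the BM, with *Trem3* at 1.62-fold and *Hcst* at 1.63-fold. The RefSeq annotation places the RNA genes *Gm52308* over *Treml4* and *Fcnaos* and *Gm35630* over *Fcna*. The sources used here do not say that reads were counted by strand, so reads of such overlapping genes cannot be told from those of *Treml4* and *Fcna*.

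Genes of haem and iron handling belong to the work of macrophages that express *Spic*. Of 16 genes, 15 of them detected in each tissue, 2 were past 2-fold higher and 6 lower in the GFP+ fraction of the FL, and 4 and 1 in that of the BM, beside all-gene shares of 16.5% and 38.4%, and of 18.0% and 36.7%. At equal FPKM totals 1 gene in place of 2 was higher in FL GFP+ cells and 1 in place of 4 in BM GFP+ cells, and *Hmox1* and *Blvrb* came to 1.63-fold and 1.52-fold in the BM. *Hmox1*, which encodes the inducible haem oxygenase, gave an FPKM of 8.80 against 20.5 for the FL and 59.5 against 26.6 for the BM, so that, as for *Cd68*, BM GFP+ cells were highest, BM GFP- and FL GFP- cells followed and FL GFP+ cells were lowest. *Slc40a1*, the iron exporter ferroportin, gave 20.3 against 7.55 for the FL but 11.4 against 11.6 for the BM. *Fth1* and *Ftl1*, the ferritin chains, were at 868 to 3117 and 1696 to 4715, and *Blvrb*, which encodes a biliverdin reductase, was past 2-fold higher in GFP+ cells of the BM, at 288 against 138. *Hp*, which encodes haptoglobin, was listed at 0 in FL GFP+ cells and had 4.28 in FL GFP- cells, against 325 and 166 in the BM.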

How the data were processed

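The authors deposited 1 table of FPKM per sample, with 23906 gene symbols. Per the labels and the methods, SMARTer libraries were mapped with TopHat, FPKM were computed with Cufflinks 2.2.1, corrected for fragment bias and multiple mapping, and normalized across the samples with Cuffnorm's geometric method. The genome is NCBI37/mm9 in the methods and mm10 in the submitters' processing notes. The files hold symbols without positions, so positions and start regions are those of RefSeq on GRCm38.p6. The deposited tables hold no counts per gene, so no counting interval is given for an FPKM.

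A gene was called higher in a sample when its FPKM was more than 2 times that in the other, over genes with an FPKM above 0 in at least 1 of both. The study's methods ask for this fold in both tissues at once; here it was also applied in each tissue and between tissues. Ratios used log2(FPKM + 1). With 1 sample per group no test was run. The members and gene lists were chosen with earlier results of these data known. Genes outside the 10 were named by a fixed rule: those past 2-fold in the same direction in both tissues, the 4 with the highest mean FPKM of each pathway list, up to 3 of the most abundant of other lists, and ranking neighbours. *Procr*, *Ccr2*, *C3*, *Hmox1*, *Slc40a1*, *Il34*, *Mbl1*, *Mbl2*, *Masp2*, *Vsig4*, *Timd4*, *Siglec1*, *Clec4f*, *Mrc1* and the genomic neighbours were named after their values were seen. *Ighm* and *Ahsp* of the lists were not matched. Alternatives were a pseudocount of 0.1, an FPKM of at least 1, thresholds of 1.5-fold and 4-fold, rescaling to equal totals or upper quartiles, and leaving out *Fcna* and *Treml4*. Protein features were planned and are not analysed here. The code of the fold rule was run on simulated data without low genes, with small noise and planted changes past the threshold. This checks the code and not how far the calls hold in these samples. Python 3.11.15 with numpy 2.4.6, pandas 2.3.3 and matplotlib 3.10.9 was used.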

Additional observations from a re-analysis of the deposited data

Results flagged for a closer look

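For 5 of the 10 macrophage genes and 8 other genes named here, the GFP+ over GFP- ratio pointed in opposite directions in the tissues, past 2-fold in each. GFP- cells were higher in the FL and GFP+ cells in the BM for all but *Igf2bp1* and *Siglec1*. The BM minus FL difference of the log2(FPKM + 1) ratios was 5.64 for *Cd5l*, 5.48 for *Cd68*, 4.40 for *C1qb*, 4.37 for *Spic* and 3.21 for *C1qa*. Among the other genes it was 4.48 for *Cxcl12*, 3.54 for *Ctss*, 3.24 for *Hcst*, 2.73 for *Cfp*, 2.27 for *Hmox1* and 2.18 for *Ccr2*, and -2.86 for *Igf2bp1* and -0.44 for *Siglec1*, the former at or near 0 in the BM and the latter at or near 0 in all samples. At equal FPKM totals *C1qa*, *Hcst*, *Cfp* and *Hmox1* were under 2-fold in the BM. The difference between the tissues was not tested, since each ratio rests on 1 sample per fraction, and the BM GFP+ sample is also the one with high neutrophil, B lineage and erythroid RNA.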

How the results depend on the processing

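No direction of any of the 10 genes reversed under the alternatives for the log2 ratios. A pseudocount of 0.1 moved the median ratio over the 10 genes in the FL from -0.18 to -1.12, the middle of 2 separate groups of genes. At a 4-fold threshold 5 genes were higher in BM GFP+ cells in place of 9, 2 in place of 5 had opposite directions in the tissues, and 3 in place of 5 were higher in GFP- cells of the BM than of the FL. At 1.5-fold, among GFP- cells, 2 in place of 1 stood above the BM in the FL. With equal FPKM totals these last 2 counts were 3 and 2. Leaving out *Fcna* and *Treml4* gave 3 in place of 5 genes higher in FL GFP+ cells and 2 in place of 4 in both tissues, by its construction. Of the wider list, 6 in place of 11 were lower in FL GFP+ cells and 2 in place of 7 in BM GFP+ cells when an FPKM of at least 1 was required, which leaves out low genes. The cause of the other shifts was not tested. *C1qa* fell under 2-fold in the BM with equal totals (1.56-fold) and equal upper quartiles (1.99-fold). Over all genes, requiring an FPKM of at least 1 changed the counts higher in GFP- cells from 6173 to 3248 (FL), 6535 to 2428 (BM) and 2465 to 707 (both), the opposite-direction count from 1164 to 632, and the GFP- tissue counts from 5383 to 2360 (BM) and 4032 to 2454 (FL). Ratios of FPKM + 1 gave 2946, 2072, 591, 469, 2010 and 1785 for these, and 264 in place of 473 higher in GFP+ cells of both tissues. At 1.5-fold 4079 in place of 2663 were higher in FL GFP+ cells, 1082 in both tissues and 1801 in opposite directions. At 4-fold these were 1243, 133 and 521, with 1443 in place of 3198 in BM GFP+ cells, 2543 in place of 4012 in FL over BM GFP+ cells and 2178 in place of 4032 in FL over BM GFP- cells. With equal totals 270 in place of 473 were higher in both GFP+ fractions and 2781 in place of 5158 highest in BM GFP+ cells. No paired analysis was possible because each group has 1 sample and the labels give no replicate numbers, and no sample could be left out. Without counts per gene, FPKM below 1 and listed values of 0 limit what the FL ratios can show.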

Other observations

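Direct target genes of BMP signalling, which the reporter reads, were measured beside the macrophage genes. *Id1* gave an FPKM of 109 against 56.5 (GFP+ against GFP-) for the FL and 70.4 against 17.5 for the BM, past 2-fold in the BM and under it in the FL. *Id2* gave 10.95 against 9.95 for the FL and 132 against 23.5 for the BM, and *Id3* 96.6 against 97.0 and 120 against 46.6. Of the 10 target genes, 8 detected in the FL and 7 in the BM, 0 were past 2-fold higher and 3 lower in FL GFP+ cells, and 5 and 1 in BM GFP+ cells, beside all-gene shares of 16.5% and 38.4%, and of 18.0% and 36.7%. With an FPKM of at least 1 required, 1 in place of 3 was lower in the FL, and at equal FPKM totals *Id3* came to 1.87-fold in the BM. The order of samples for *Id1*, with FL GFP+ cells highest, was not that of any of the 10 macrophage genes. At equal FPKM totals *Treml4* and *C1qc* were also highest in FL GFP+ cells.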
